A study of Drosophila melanogaster with 12 samples.

Results

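Act79B and TpnC4 are muscle genes of Drosophila melanogaster, one encoding an actin and the other a troponin C. Both were followed on all 12 arrays of a series that set heads of flies fed pentylenetetrazole (PTZ, a convulsant drug) against heads of flies kept on normal food (NF). The pair was selected on its 12 hrs values in these same arrays, so those values are given as a description, and no test of either gene is reported at 12 hrs. A feature is the mean of 2 adjacent spots that carry the same probe. Act79B (CG7478, gene ID 40444) and TpnC4 (CG12408, gene ID 35498) had 1 feature each, 2 of the 13824 features on the array and of the 7558 with 1 gene symbol. The name TpnC4 is also listed among the synonyms of TpnC41C (CG2981, gene ID 35473), a separate troponin C gene with a feature of its own. TpnC41C is therefore described with the paralogs and not counted as TpnC4.

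In every group the flies were unmated Oregon-R males, 3-4 days old at the start, kept at 30 per vial, and their heads were pooled before RNA extraction. PTZ flies received 8 mg/ml of the drug in NF for 12 hrs, up to the 2nd day or up to the 7th day, and NF flies were kept on the same food without drug for the same time. Each array compared PTZ RNA with NF RNA in 2 colours, with 4 arrays per time point. Arrays 1 and 2 of each time point are called forward here (PTZ RNA in Cy5) and arrays 3 and 4 swapped (PTZ RNA in Cy3). The study describes the 4 arrays of a time point as biological replicates. Effects of dye orientation cannot be told apart from differences between arrays 1 and 2 and arrays 3 and 4. Nothing says that the same replicate number at different time points stands for shared cultures. The p-values measure only the spread between these arrays.

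Actin polymerises into the thin filaments of muscle, and troponin C is the calcium sensor on those filaments that lets contraction begin. Drosophila has a family of actin genes and a family of troponin C genes, with different members used in different muscles and stages. Act79B is known as an actin of tubular muscles such as those of the legs and the jump muscle, and TpnC4 as the troponin C of the fibrillar flight muscle in the thorax. A head holds muscle too, mainly that which moves the proboscis and the antennae.

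Each array gave values for 6148 to 18086 of its 27648 spots, and the median log2 ratio over features lay between -0.64 and 0.16 from array to array. The lowest median belonged to the swapped array 4 of the 7th day. A figure legend of the study names its ratios by the red scanner channel over the green one, averaged over balanced dye swaps. Neither that legend nor the other sources used here say if the swapped arrays were turned to read PTZ over NF before the values were deposited. Results are therefore given both with the swapped ratios multiplied by -1 (turned) and with them left as deposited. Forward arrays read PTZ over NF under either one, but hold any dye effect as well. The source labels of 2 arrays (array 3 at 12 hrs and array 2 on the 2nd day) give both channels the same state, while their treatment fields follow the scheme above. Arrays carry no count depth, and their small number limits the precision.

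At 12 hrs, Act79B had log2 ratios of 0.34 and 0.65 on the forward arrays and, as deposited, -0.15 and -0.40 on the swapped arrays. The forward values were thus both above 0 and the swapped ones both below it. With the swapped arrays turned, the mean was 0.39 ± 0.21 (SD, n = 4), a ratio of 1.31 between PTZ and NF heads. As deposited it was 0.11 ± 0.47 (SD, n = 4), a ratio of 1.08. The value of array 3 averages 2 spots that lie apart, at 0.25 and -0.55, a gap wider than that of 91.4% of the features on that array. On the other 3 arrays of 12 hrs both Act79B spots lay on the same side of 0.

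The place of Act79B among all features of an array shifted with orientation as well. It stood at the 80.3rd and 98.4th percentiles of the forward arrays at 12 hrs, and at the 40.9th and 5.35th of the swapped arrays. Its 20 nearest features in spot order had medians of 0.017 and 0.17 on the forward arrays, and 0.027 and -0.040 on the swapped arrays. Subtracting these left a turned mean of 0.34 ± 0.12 (SD, n = 4).

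TpnC4 at 12 hrs had log2 ratios of 0.31 and 0.17 on the forward arrays and, as deposited, -0.63 and -0.35 on the swapped arrays. The signs split by orientation as for Act79B, but here the swapped arrays lay farther from 0 than the forward ones. The turned mean was 0.36 ± 0.20 (SD, n = 4), a ratio of 1.29 between PTZ and NF heads, and the mean as deposited was -0.13 ± 0.44 (SD, n = 4), a ratio of 0.916. Its percentiles on the arrays were 75.3 and 76.6 forward, and 4.15 and 7.69 swapped. Both spots of TpnC4 lay on the same side of 0 on all 4 arrays.

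The features nearest to TpnC4 in spot order were displaced in the same way at 12 hrs. Their medians were 0.44 and 0.21 on the forward arrays and -0.32 and -0.06 on the swapped arrays. With these subtracted, the turned mean of TpnC4 was 0.11 ± 0.22 (SD, n = 4), while that of Act79B stayed above 0.3. Coordinates on the slide were not used, and whether the position there contributed to the TpnC4 ratios was not tested.

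**Figure D1:**
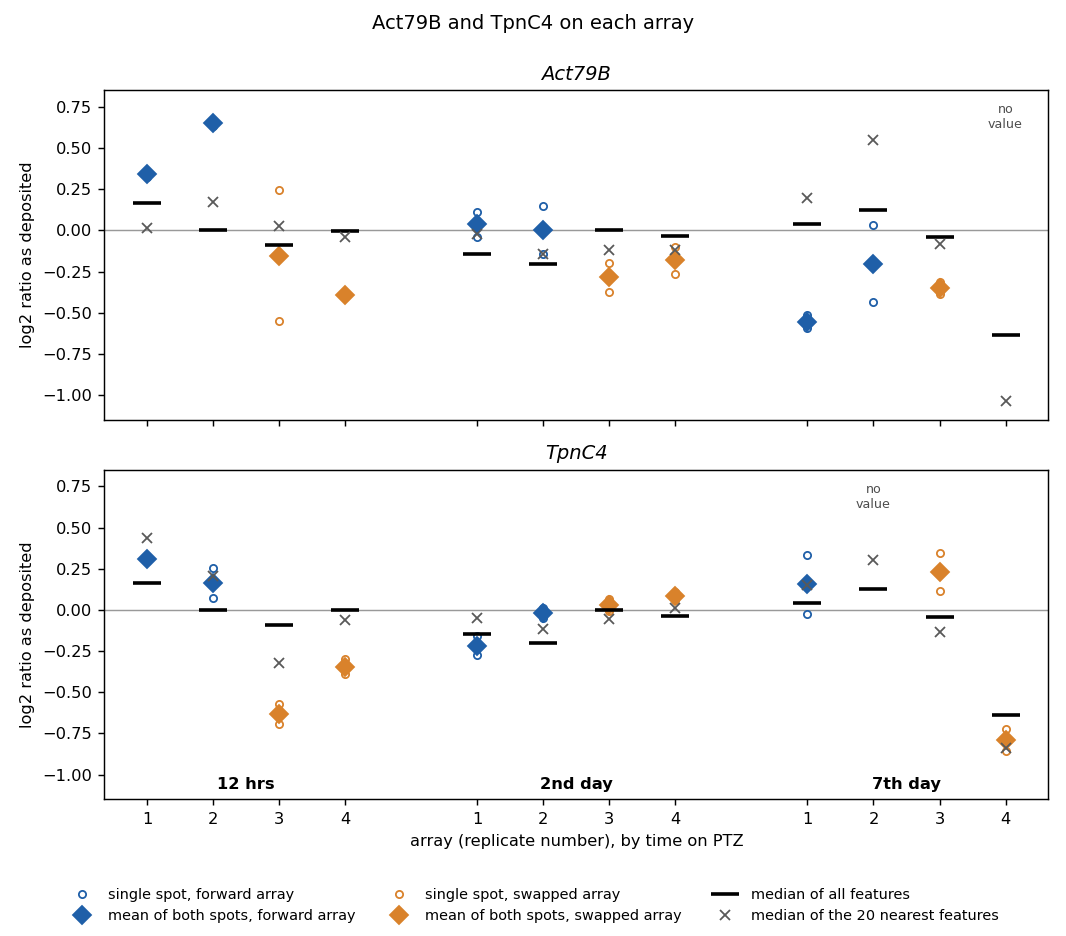
Log2 ratio as deposited (vertical axis) of Act79B and TpnC4 on each of the 12 arrays (horizontal axis), with single spots as open circles, the mean of both spots as diamonds, forward arrays in blue and swapped arrays in orange. At 12 hrs both genes lie above 0 on the forward arrays and below 0 on the swapped arrays, and near TpnC4 the median of the 20 nearest features (crosses) moves the same way.

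The opposite signs of forward and swapped arrays were common at 12 hrs. Forward means above 0 with swapped means below 0 were found for 2056 of 4642 features (44.3%), and opposite signs of either kind for 63.0%. Act79B, with a forward mean of 0.50 and a swapped mean of -0.27, had a larger gap between orientations than 95.5% of these features. For TpnC4, with 0.24 and -0.49, the share was 94.5%. In pooled heads, a change in the number of cells of a type and a change in RNA per cell cannot be told apart.

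On the 2nd day Act79B had log2 ratios of 0.036 and 0.003 on the forward arrays and, as deposited, -0.28 and -0.18 on the swapped arrays. The forward values were close to 0, and the swapped values lay below it. The turned mean was 0.13 ± 0.13 (SD, n = 4), a ratio of 1.09 between PTZ and NF heads (95% interval 0.919 to 1.30), with an adjusted p of 0.677 in limma. As deposited the mean was -0.11 ± 0.15 (SD, n = 4), with an adjusted p of 0.535 in limma. The turned sign of Act79B here runs against the direction the study gives this gene at that time, and the sign as deposited does not. By its own looser threshold the study lists only downregulated genes at every time point. The sign of this gene therefore does not decide between the readings. The forward arrays alone gave 0.019 (adjusted p = 0.917, limma).

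These tests were read against all features of the day. With the swapped arrays turned, 0 of 5279 features passed an adjusted p of 0.05 in limma (0%), and the one-class SAM test with 16 sign flips also called 0, while 492 (9.32%) passed an unadjusted p of 0.05. As deposited, 1 feature passed the adjusted p (0.0189%). On the forward arrays alone 2022 of 4964 features passed it (40.7%), and neither Act79B nor TpnC4 was among them.

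Against its own array, Act79B kept the 12 hrs pattern on the 2nd day. It lay above the median of all features by 0.18 and 0.20 on the forward arrays, and its swapped values minus the median were -0.29 and -0.14 as deposited. Centring each array on its median gave a turned mean of 0.20 ± 0.06 (SD, n = 4), again with no call (adjusted p = 0.599, limma). A forward mean above 0 with a swapped mean below 0 was less frequent on this day, at 596 of 5279 features (11.3%), and Act79B was one of them.

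TpnC4 on the 2nd day had log2 ratios of -0.22 and -0.018 on the forward arrays and, as deposited, 0.031 and 0.083 on the swapped arrays. All 4 lay nearer to 0 than its swapped values of 12 hrs, and each orientation had changed side. The turned mean was -0.087 ± 0.091 (SD, n = 4), a ratio of 0.941 between PTZ and NF heads (95% interval 0.797 to 1.11), with an adjusted p of 0.758 in limma. As deposited it was -0.030 ± 0.131 (SD, n = 4; adjusted p = 0.864, limma), and on the forward arrays alone -0.12 (adjusted p = 0.494, limma). The turned mean of TpnC4 stood close to the median of all features, which was -0.078 turned and, as deposited, -0.10.

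Act79B on the 7th day had log2 ratios of -0.55 and -0.20 on the forward arrays and -0.35, as deposited, on the swapped array 3. The swapped array 4 gave it no value. As deposited all 3 values lay below 0, at the 8.26th, 21.0th and 9.84th percentiles of their arrays, so that the orientations no longer had opposite signs. The mean as deposited was -0.37 ± 0.18 (SD, n = 3), a ratio of 0.774 between PTZ and NF heads (95% interval 0.553 to 1.08), with an adjusted p of 0.645 in limma. Turned, it was -0.14 ± 0.46 (SD, n = 3), a ratio of 0.911 (95% interval 0.626 to 1.33; adjusted p = 0.964, limma).

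The 2 forward arrays of the 7th day averaged -0.38 for Act79B (adjusted p = 0.997, limma). On array 2 the spots were 0.031 and -0.44, on either side of 0. The nearest features went the other way on these arrays, with medians of 0.20 and 0.55. Forward and swapped means both below 0 were found for 1833 of 4316 features (42.5%) on this day. Without array 1 the turned mean of Act79B was 0.075, on the other side of 0, and as deposited it was -0.28.

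On the same day TpnC4 had a log2 ratio of 0.16 on the forward array 1, no value on the forward array 2, and 0.23 and -0.79, as deposited, on the swapped arrays. The value of -0.79 lay on the array whose median was -0.64, where it stood at the 30.7th percentile, and the 0.23 stood at the 91.2nd percentile of its own array. The turned mean was 0.24 ± 0.51 (SD, n = 3), a ratio of 1.18 between PTZ and NF heads (95% interval 0.808 to 1.72; adjusted p = 0.964, limma). As deposited it was -0.14 ± 0.57 (SD, n = 3; adjusted p = 0.883, limma). Without array 4 both means changed sign, to -0.036 turned and 0.19 as deposited, and centring each array on its median brought the turned mean to -0.00083.

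Of the 4316 features tested on the 7th day, 0 passed an adjusted p of 0.05 turned (0%) in limma and in SAM, and 98 passed it unadjusted (2.27%). As deposited, 27 were lower at an adjusted p of 0.05 (0.626%) and 391 lower at an unadjusted p of 0.05 (9.06%), and neither Act79B nor TpnC4 was among either set. The forward arrays alone called 0 of 2944 features in limma (0%), with 65 at an unadjusted p of 0.05 (2.21%).

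**Figure D2:**
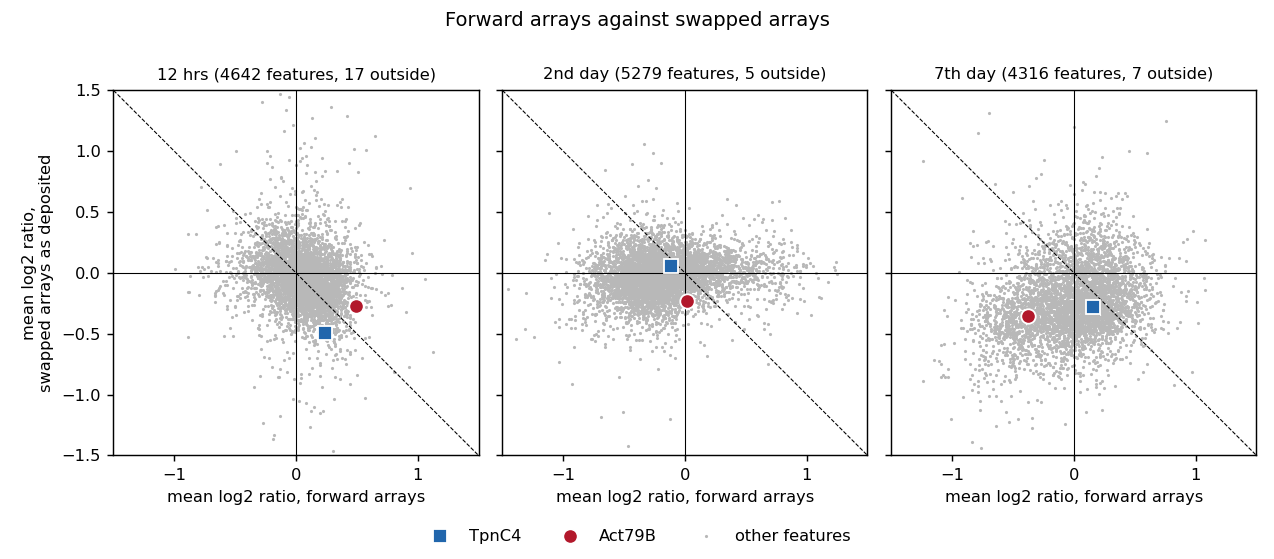
Mean log2 ratio of the forward arrays (horizontal axis) against that of the swapped arrays as deposited (vertical axis) for every feature measured on 3 or 4 arrays and in both orientations, 1 panel per time point, with features beyond 1.5 on either axis counted in the panel title and a dashed line where the orientations are equal and opposite. Act79B (red circle) stands in the lower right at 12 hrs (0.50 and -0.27) and in the lower left on the 7th day (-0.38 and -0.35), and TpnC4 (blue square) stands near 0 on the 2nd day (-0.12 and 0.057).

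The change between the later time points was tested in 1 fit over the arrays of both days. For Act79B the 7th day minus the 2nd was -0.26 on the log2 scale when turned (95% interval -0.85 to 0.32; adjusted p = 0.664, limma) and also -0.26 as deposited (adjusted p = 0.787, limma). For TpnC4 it was 0.33 turned (95% interval -0.27 to 0.92; adjusted p = 0.654, limma) and -0.11 as deposited (adjusted p = 0.930, limma). The median difference over all features was 0.28 turned and -0.094 as deposited, so that when turned the TpnC4 difference lay near the median and that of Act79B on the other side of 0. Of 2483 features 0 passed the adjusted p when turned (0%) and 127 an unadjusted p of 0.05 (5.11%). As deposited 1 of 2483 passed the adjusted p in limma, and 116 were lower and 44 higher at an unadjusted p of 0.05. Without array 4 of both days the turned difference of TpnC4 was 0.053, and without array 1 of both days that of Act79B was -0.082. None of these tests shows that either gene did not change. The turned intervals reach from ratios of 0.556 to 1.25 for Act79B and from 0.832 to 1.89 for TpnC4.

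**Figure D3:**
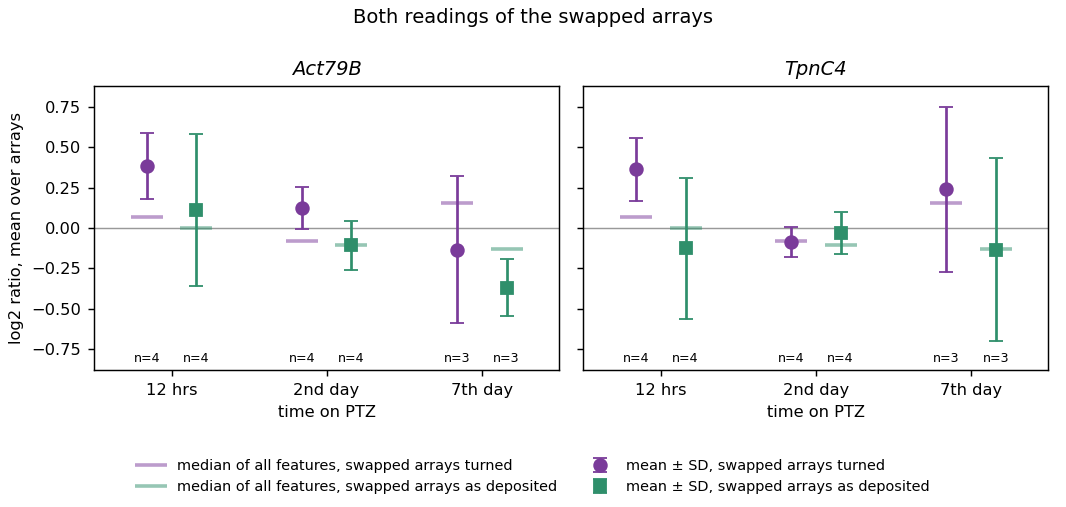
Mean log2 ratio over arrays with its SD (vertical axis) of Act79B and TpnC4 at each time on PTZ (horizontal axis), with the swapped arrays turned in purple circles, left as deposited in green squares, and the median of all features as short bars. The readings lie apart at 12 hrs (0.39 and 0.11 for Act79B, 0.36 and -0.13 for TpnC4), and the SD bars cross 0 at most points on the later days.

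The 2 genes differed from each other by amounts that varied between arrays. At 12 hrs Act79B minus TpnC4 was 0.032 and 0.49 on the forward arrays, and 0.48 and -0.050 as deposited (-0.48 and 0.050 turned) on the swapped arrays. On the 2nd day it was 0.25 and 0.021 forward, and -0.32 and -0.26 as deposited (0.32 and 0.26 turned) on the swapped arrays. On the 7th day both genes were measured on arrays 1 and 3 alone, where it was -0.71 on the forward array and -0.58 as deposited (0.58 turned) on the swapped array. As the members of the pair share each array and its dyes, their ratios are not independent.

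Among the paralogs on the array were the actins Act87E, an actin of body wall muscle, with 2 features, and Act88F, the actin of indirect flight muscle, with 1. Closely related genes may bind each other's probes, so that the actin values, like the troponin C values, cannot be told apart fully by gene. Act88F at 12 hrs had 0.011 and -0.13 on the forward arrays and 0.014 and -0.41 on the swapped arrays as deposited. Unlike Act79B it thus showed no split by orientation.

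On the 2nd day the 4 Act88F values lay between -0.0065 and 0.065. On the 7th day Act88F was measured on arrays 1 and 3 and had -0.67 and -0.35 as deposited. Act79B had -0.55 and -0.35 on the same arrays, and turned, both genes read 0.35 on array 3.

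Both Act87E features gave values on 9 arrays. The one used in the muscle list had turned means of 0.21 ± 0.20 at 12 hrs (SD, n = 4) and 0.013 ± 0.108 on the 2nd day (SD, n = 3), with -0.015 and -0.14 as deposited on arrays 1 and 3 of the 7th day. The other read 0.23 and 0.29 forward on the 2nd day, with -0.12 and -0.054 swapped as deposited, where it had the orientation split that the first feature lacked. At 12 hrs it held a value of 2.43 that came from 1 spot, and on arrays 1 and 3 of the 7th day it read -0.18 and -0.32 as deposited. All 4 actin features were below 0 on both of these arrays as deposited, as were 2273 of 7251 features (31.3%), and turned, all 4 were above 0 on array 3. Markers of other cells varied as deposited on that day, beside a median of -0.13 over all features. The 3 photoreceptor genes tested had a median of -0.41. The 2 fat body genes tested, apolpp and Fbp1, had means of -1.05 and 0.18. The single glial gene tested, Gs2, had -0.55, and the single neuronal gene, nSyb, had 0.18. The part of these cells was not tested.

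TpnC41C, a troponin C of tubular muscle, had at 12 hrs 0.40 on the forward array 2, and 0.098 and -0.030 on the swapped arrays as deposited. In order of time its turned means were 0.11 ± 0.26, -0.13 ± 0.22 and 0.16 ± 0.30 (SD, n = 3 each). On the 7th day it resembled TpnC4, with -0.012, 0.010 and -0.50 on arrays 1, 3 and 4, the lowest again being on the array with the lowest median. TpnC73F, a further troponin C, averaged 0.18 ± 0.25 turned at 12 hrs and 0.20 ± 0.42 on the 2nd day (SD, n = 4 each), where one of its spots on array 1 read 1.37 and the other 0.20. None of these paralogs passed an adjusted p of 0.05 on the 2nd day in limma in either reading. Of them only TpnC41C, on the 7th day, had enough values to be tested, and it did not pass.

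The other muscle genes were taken from a list of 37 genes for thin filaments, thick filaments, Z discs and calcium handling, chosen with earlier results of these data known. Of these 15 had a feature, and 10, 11 and 4 had enough values at the 3 time points in turn. Major muscle genes such as Mhc (myosin heavy chain), sls (titin-like) and up (troponin T) had no feature with 1 gene symbol, so this set covers muscle only in part. At 12 hrs 9 of the 10 had turned means above 0, as had 64.4% of all features, with a median of 0.14 beside 0.068. Of the 10, 1 passed an unadjusted p of 0.05 on the higher side, a share near that of all features (551 of 4642, 11.9%). This was Zasp66, a Z disc protein, with forward values of 0.36 and 0.37, swapped values of -0.12 and -0.29 as deposited, and a turned mean of 0.29 ± 0.12 (SD, n = 4). As deposited the median of the 10 was 0.012, beside 0.00025 over all features.

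By role, the other thin filament genes at 12 hrs included Tm2, a tropomyosin, at a turned mean of 0.16 ± 0.08. The myosin light chains Mlc1 and Mlc2 stood at 0.021 ± 0.189 and 0.15 ± 0.17, and Actn, the alpha-actinin of Z discs, at 0.14 ± 0.18. Gpdh1, a glycerol-3-phosphate dehydrogenase used by flight muscle, was the one muscle gene with a turned mean below 0 at 12 hrs, at -0.20 ± 0.38 (SD, n = 4 for each of these genes). As deposited, 5 of the 10 means lay above 0 and 5 below.

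On the 2nd day 3 of the 11 muscle genes had turned means above 0, with a median of -0.084 beside -0.078 over all features. As deposited the median was -0.027 beside -0.10, with 4 above 0. The lowest means as deposited were those of Gpdh1 (-0.30) and Actn (-0.26), and the highest was that of TpnC73F (0.29). Actn had forward values of -0.36 and -0.32 and a single swapped value of -0.12 as deposited. Gpdh1 had -0.28 and -0.76 forward with -0.13 and -0.024 swapped. On the 7th day the 4 genes measured were TpnC41C, Mlc2, kon (a muscle attachment protein) and if (an integrin subunit), with a turned median of 0.15 beside 0.16, and -0.13 as deposited beside -0.13. No muscle gene of the list passed an adjusted p of 0.05 at any time in either reading in limma.

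**Figure D4:**
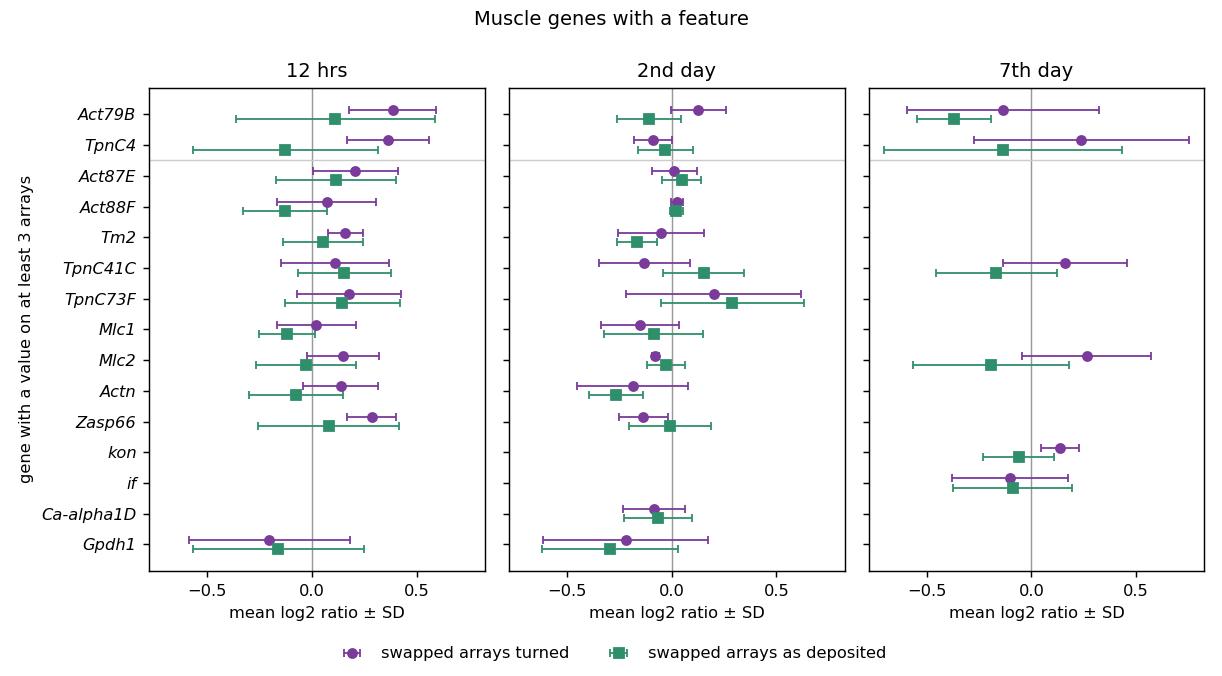
Mean log2 ratio over arrays with its SD (horizontal axis) for each muscle gene with values on at least 3 arrays (vertical axis, Act79B and TpnC4 on top), 1 panel per time point, in purple circles where swapped arrays were turned and in green squares where they were left as deposited. At 12 hrs Act79B (0.39) and TpnC4 (0.36) have the highest turned means of the genes shown, which is the ground on which they were chosen, and on the 7th day few muscle genes were measured.

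Markers of other head cells also lay mostly above 0 at 12 hrs when turned. Of 8 photoreceptor genes 4 were tested, with a turned median of 0.44, and 3 (trp, inaD and Arr1) passed an unadjusted p of 0.05 on the higher side, beside 11.9% of all features. The other, trpl, had a turned mean of -0.13 and a swapped value of 1.82 as deposited. Arr1, an arrestin of the photoreceptors, had 0.46 and 0.67 on the forward arrays and -0.25 and -0.82 on the swapped arrays as deposited. Of 6 fat body genes 4 were tested, with a turned median of 0.34. Yp2, Lsp2 and apolpp had turned means of 0.41, 0.35 and 0.33, and Yp1 had -0.18. Of these Yp2 and Lsp2 passed the unadjusted p on the higher side. The single neuronal gene tested of 6, nSyb, had a turned mean of 0.38 and also passed it. The single glial gene tested of 5, Gs2, had 0.16 and did not. As deposited the medians of these lists were 0.077, -0.036, -0.22 and -0.11 in the same order. Of the 3 markers listed for thoracic flight muscle, TpnC4 and Act88F had features, at turned means of 0.36 and 0.071 at 12 hrs, and fln had none. The part of these cell types in the ratios of Act79B and TpnC4 was not tested.

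Likeness of profile was measured as the uncentred correlation over shared arrays, which is the same turned or as deposited. It is a description over 10 or 11 arrays that share dyes and normalization, and it includes the 12 hrs values that chose the pair. Among 1521 features with 1 gene symbol, the 5 most like Act79B were Jhbp2 (0.915), a member of the juvenile hormone binding protein family, Arr1 (0.888), CG14757 (0.885), the glutathione transferase gene GstE12 (0.881) and the ubiquitin gene Ubi-p5E (0.88). The median over all candidates was 0.128, and TpnC4 ranked at 576 with 0.251. Jhbp2 read 0.34 and 0.30 on the forward arrays and -0.011 and -0.13 on the swapped arrays at 12 hrs, and -0.37 and -0.13 on arrays 1 and 3 of the 7th day. Its course thus followed that of Act79B with smaller values at most points.

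Among 1571 features, those most like TpnC4 were CG12081 (0.939), CG11099 (0.922), wisp (0.902), which encodes a poly(A) polymerase of the germ line, CG1764 (0.895) and the fatty acid synthase gene FASN3 (0.894). The median here was higher, at 0.392, and Act79B ranked at 1004. Of the muscle genes, Zasp66 (0.643, rank 85) and Act88F (0.589, rank 131) were the nearest to Act79B. For TpnC4 they were Mlc2 (0.642, rank 312) and Zasp66 (0.618, rank 364). No muscle gene stood among the 5 nearest features of either member. Candidates had to share at least 10 arrays with the member, so TpnC41C and Act87E, with 9 arrays per feature, could not enter.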

How the data were processed

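The authors scanned 12 two-colour cDNA arrays, normalized the ratios and filtered spots on signal, flags and saturation in Acuity, and deposited log2 ratios per spot; the scale follows from the range of the values and the study's description. Spots that failed their filters have no value, which leaves genes of low signal unmeasured. Adjacent spots of 1 probe were averaged, and symbols were updated through the gene ID. Features with values on at least 3 of 4 arrays were tested per time point with limma 3.58.1 in R 4.3.3 (2-sided, moderated mean against 0), with Benjamini-Hochberg adjustment over all features and a threshold of 0.05. The change from the 2nd to the 7th day used 1 fit with a mean per day. The methods were tested on simulated data. Named genes were the members, all actin and troponin C genes with a feature, the muscle list by role, cell type markers and the 5 features most like each member. The members and lists were chosen with earlier results of these data known. Alternatives covered the direction of swapped arrays, centring, scaling, neighbours, spots, filters, tests and left-out arrays. The authors' NF against NF arrays were not analysed here, and no gene sequences were used here.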

Additional observations from a re-analysis of the deposited data

Results flagged for a closer look

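One result met a rule for a closer look. With the swapped arrays turned, TpnC4 lay above 0 on all 4 arrays at 12 hrs and below 0 on all 4 arrays of the 2nd day, and its means of the 2nd day and of 12 hrs differed by -0.45 on the log2 scale. The difference was not tested, because the 12 hrs values chose the gene. The turned median over all features also lay higher at 12 hrs (0.068) than on the 2nd day (-0.078). As deposited, 2 of 4 arrays were above 0 at each of these times. With the 20 nearest features subtracted the turned means were -0.058 on the 2nd day and 0.11 at 12 hrs.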

How the results depend on the processing

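No alternative gave Act79B or TpnC4 an adjusted p under 0.05 on the 2nd or 7th day, but their means depended on how the swapped arrays were read. As deposited, the 12 hrs means were 0.11 for Act79B and -0.13 for TpnC4. Act79B then had -0.11 on the 2nd day, and TpnC4 -0.14 on the 7th day and -0.11 between the later days. Combining this reading with centred arrays or with 20 nearest features subtracted was chosen after seeing the data. Centred, they gave Act79B means of 0.093 (12 hrs) and -0.012 (2nd day), and TpnC4 means of -0.15 and 0.065 at the same times. With neighbours subtracted, they gave Act79B 0.068 and -0.0042, and TpnC4 -0.19 and 0.022. On the 7th day these settings gave Act79B -0.41 and -0.59.

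With the swapped arrays turned, subtracting neighbours gave TpnC4 0.11 at 12 hrs, -0.14 on the 7th day and -0.078 between the later days, and Act79B -0.41 on the 7th day and -0.52 between the later days. On the 7th day, centring gave TpnC4 -0.00083 and Act79B -0.20, centring with scaling gave -0.059 and -0.063, and dye orientation as a second coefficient gave Act79B -0.013. Centring gave changes between the later days of 0.0089 for TpnC4 and -0.41 for Act79B. Leaving out 1 array in turn gave 7th day means of -0.38 (without array 3) to 0.075 (without array 1) for Act79B, and of -0.036 (without array 4) to 0.47 (without array 3) for TpnC4. The change between the later days ranged from -0.45 to -0.082 for Act79B and from 0.053 to 0.58 for TpnC4. As deposited (also chosen after seeing the data), the 12 hrs means ranged from -0.069 to 0.28 for Act79B and from -0.27 to 0.043 for TpnC4, the 2nd day means from -0.15 to -0.048 and from -0.068 to 0.032, and the 7th day means from -0.45 to -0.28 and from -0.32 to 0.19, each in the same order. The cause was not tested.

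Deviations of same-numbered arrays across times had r from -0.073 to 0.26 (12 pairs, median 0.077, others -0.043). Numbers follow dye orientation, so this cannot decide pairing. With the replicate number as a block, the 7th day minus the 2nd was -0.24 for Act79B (adjusted p = 0.784, limma) and 0.35 for TpnC4 (adjusted p = 0.735, limma), and 4 features in all were called against 0 without the block. The filter on all 4 arrays leaves neither gene on the 7th day, and the forward arrays alone give no TpnC4 value then. The mean over a gene's features was not run (1 feature each). Signal over background limits what an array can measure.

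Over all features, where the turned fits of limma called 0 at each time point, forward arrays alone called 107 (12 hrs) and 2022 (2nd day), and dye orientation as a second coefficient called 976 on the 2nd day. As deposited 1 was called on the 2nd day, 29 on the 7th and 1 between them, and centred arrays called 1 between them. First or second spots alone called 1 and 3 on the 7th day. Leaving out 1 array in turn, with the swapped arrays turned, called up to 61 at 12 hrs, 65 on the 2nd day, 31 on the 7th and 19 between them. As deposited it called up to 70 features lower with 44 higher (2nd day, without array 4) and 89 with 4 (7th, without array 2).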
